A study of Mus musculus with 12 samples.

Results

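The neurotrophin and GDNF family receptors examined here are 8 genes, *Ntrk2*, *Ntrk3*, *Ngfr*, *Sort1*, *Ret*, *Gfra1*, *Gfra2* and *Gfra3*, out of 22609 genes counted in tongue-innervating sensory neurons of the mouse trigeminal ganglion (TG). The members were taken by gene symbol, from a list chosen with earlier results of these data known. Neurotrophins are secreted survival and growth factors that bind the Trk receptor tyrosine kinases, with the product of *Ngfr* as a second receptor and sortilin, the product of *Sort1*, as its partner in binding the uncleaved proneurotrophins. The GDNF family ligands first bind a GFRα co-receptor that is anchored in the membrane by a lipid, and this complex then activates the tyrosine kinase Ret. In sensory ganglia these receptors mark classes of neurons, with Ret and its co-receptors prominent in many unmyelinated nociceptors and *Ntrk3* prominent in large myelinated mechanoreceptors.

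Neurons were labeled by injecting the retrograde tracer wheat germ agglutinin (WGA) in the tongue, and WGA-positive TG cells were sorted for bulk RNA sequencing in 4 groups of 3 samples. MN and MT came from males without and with a tongue tumor, and FN and FT from females without and with one. All mice were athymic nude Balb/c mice of 6 to 8 weeks, which lack mature T cells, so that human cells can grow in them. Tumor groups received 350000 HSC3 cells, which derive from a human oral squamous carcinoma, in the tongue, the tracer was given on day 13, and ganglia were taken on day 15. Each sample pooled 4 TGs, from 2 mice in the normal groups and from 4 mice, ipsilateral side only, in the tumor groups. The labels state that the normal groups received no cells whereas the methods state that they received human normal oral keratinocytes, and the WGA concentration also differs between these sources, so neither point was settled. Nothing ties the samples to separate experiments, so p values measure the spread between pooled samples. The libraries held 4592891 to 8922011 reads on genes, and the members were covered by 88 to 12783 reads per library. The sorted cells carried neuronal transcripts in every library, with 12 sensory neuron markers summing to 14279 to 25940 CPM, the reads of a gene scaled to a common total of 1000000 reads on genes.

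FN2, FT2 and FT3 stood apart from the other libraries. Reads that mapped to several places made up 56.0%, 68.4% and 52.6% of their reads, against 43.0% to 45.5% in each of the other 9. *Avil*, a defining marker of sensory neurons, lay at 242, 663 and 425 CPM in these 3 libraries and at 1148 CPM or more in the other 9. The 12 sensory neuron markers together summed to 25940 CPM in FN2 and 24363 CPM in FT3, above the 16887 to 20086 CPM of the other 9, and to 14279 CPM in FT2, below them. Markers of satellite glia, 9 genes, summed to 16556 CPM in FN2 and 18105 CPM in FT3, above the 3644 to 8516 CPM of the other 9. In FT2 they summed to 7931 CPM, within that range. Of the 8 receptors, 5 in FN2, 5 in FT2 and 4 in FT3 lay below all of the other 9 libraries, where 49.9%, 53.1% and 41.2% of the 13835 genes tested did so, and 3 receptors in FT2 lay above all 9, as did 26.4% of genes. Results for FN and FT are therefore given with and without these libraries, whose part in each result is shown by the values.

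Promoter sequences were found for 3 receptors, and all 3 are shown. *Ngfr* and *Gfra1* had lower levels in every FN than in every MN library and *Ntrk2* had overlapping levels. A link between promoter letters and levels was not tested. They come from RefSeq on the build GRCm38.p6, span 250 bases before to 50 bases after the annotated start and are written in the direction of transcription. Capitals mark matches on either strand to GGGCGG (the GC box), TGTGGT (the core bound by RUNX factors), TGANTCA (an AP-1 site) or TATAAA (the TATA box), and no match overlapped another.
*Ngfr*, chr11:95587649-95587948, minus strand: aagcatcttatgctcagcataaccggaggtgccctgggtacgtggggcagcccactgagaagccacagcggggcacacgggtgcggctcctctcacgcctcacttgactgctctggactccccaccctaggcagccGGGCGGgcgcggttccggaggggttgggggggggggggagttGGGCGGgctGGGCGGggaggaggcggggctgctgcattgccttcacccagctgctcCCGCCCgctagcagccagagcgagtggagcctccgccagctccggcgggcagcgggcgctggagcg
*Gfra1*, chr19:58455349-58455648, minus strand: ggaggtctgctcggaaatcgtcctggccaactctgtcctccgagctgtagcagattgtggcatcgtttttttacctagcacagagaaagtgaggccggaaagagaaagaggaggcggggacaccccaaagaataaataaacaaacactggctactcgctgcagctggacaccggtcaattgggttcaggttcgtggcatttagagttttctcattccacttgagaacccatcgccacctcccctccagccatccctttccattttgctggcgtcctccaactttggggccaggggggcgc
*Ntrk2*, chr13:58806319-58806618, plus strand: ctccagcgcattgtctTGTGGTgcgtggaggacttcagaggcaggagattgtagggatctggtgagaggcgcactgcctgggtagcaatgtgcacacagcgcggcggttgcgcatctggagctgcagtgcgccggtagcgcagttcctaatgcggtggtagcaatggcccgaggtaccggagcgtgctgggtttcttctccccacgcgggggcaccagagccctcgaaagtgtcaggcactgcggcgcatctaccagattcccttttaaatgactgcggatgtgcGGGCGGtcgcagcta
The *Ngfr* promoter held 4 GC boxes in 71.7% GC, the *Ntrk2* promoter held 1 GC box and 1 RUNX core in 61.3% GC, and the *Gfra1* promoter held none of the 4 motifs in 54.0% GC. Among the 32544 promoters of the same length, 35.9% held a GC box, 16.7% a RUNX core, 7.79% an AP-1 site and 13.6% a TATA box, and the median GC content was 53.0%. Entries for *Ntrk3*, *Sort1*, *Ret*, *Gfra2* and *Gfra3* were not found in the promoter set. These matches describe letters in the window and do not show binding.

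To compare levels between genes, CPM were divided by the exon length in kilobases (RPKM). This length joins all annotated exons of a gene, 15.1 kb for *Ntrk2* and 5.24 kb for *Ntrk3*, so the order of genes depends on it. By CPM in MN, *Ntrk2* at 158 was above *Gfra1* at 143 and *Gfra2* at 101. In MN, *Ngfr* was the most abundant receptor transcript at 402 ± 18.9 RPKM (mean ± SD, n = 3), above 99.4% of the genes with counts. *Ret* at 120 ± 5.82 RPKM and *Gfra3* at 119 ± 4.41 RPKM followed, and their ranges overlapped. *Gfra2* at 28.6 ± 3.82 RPKM and *Gfra1* at 26.1 ± 2.80 RPKM also overlapped each other and lay below the first 3 genes. *Ntrk2* at 10.5 ± 1.38 RPKM, *Ntrk3* at 8.75 ± 0.296 RPKM and *Sort1* at 4.51 ± 0.630 RPKM were the lowest, each with a range apart from its neighbours. *Ngfr* led in 10 libraries, and *Gfra3* led in FN2 and FT3. In MT the order of *Gfra3* and *Ret* was exchanged, at 134 ± 37.9 and 96.9 ± 10.8 RPKM, with overlapping ranges.

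**Figure D1:**
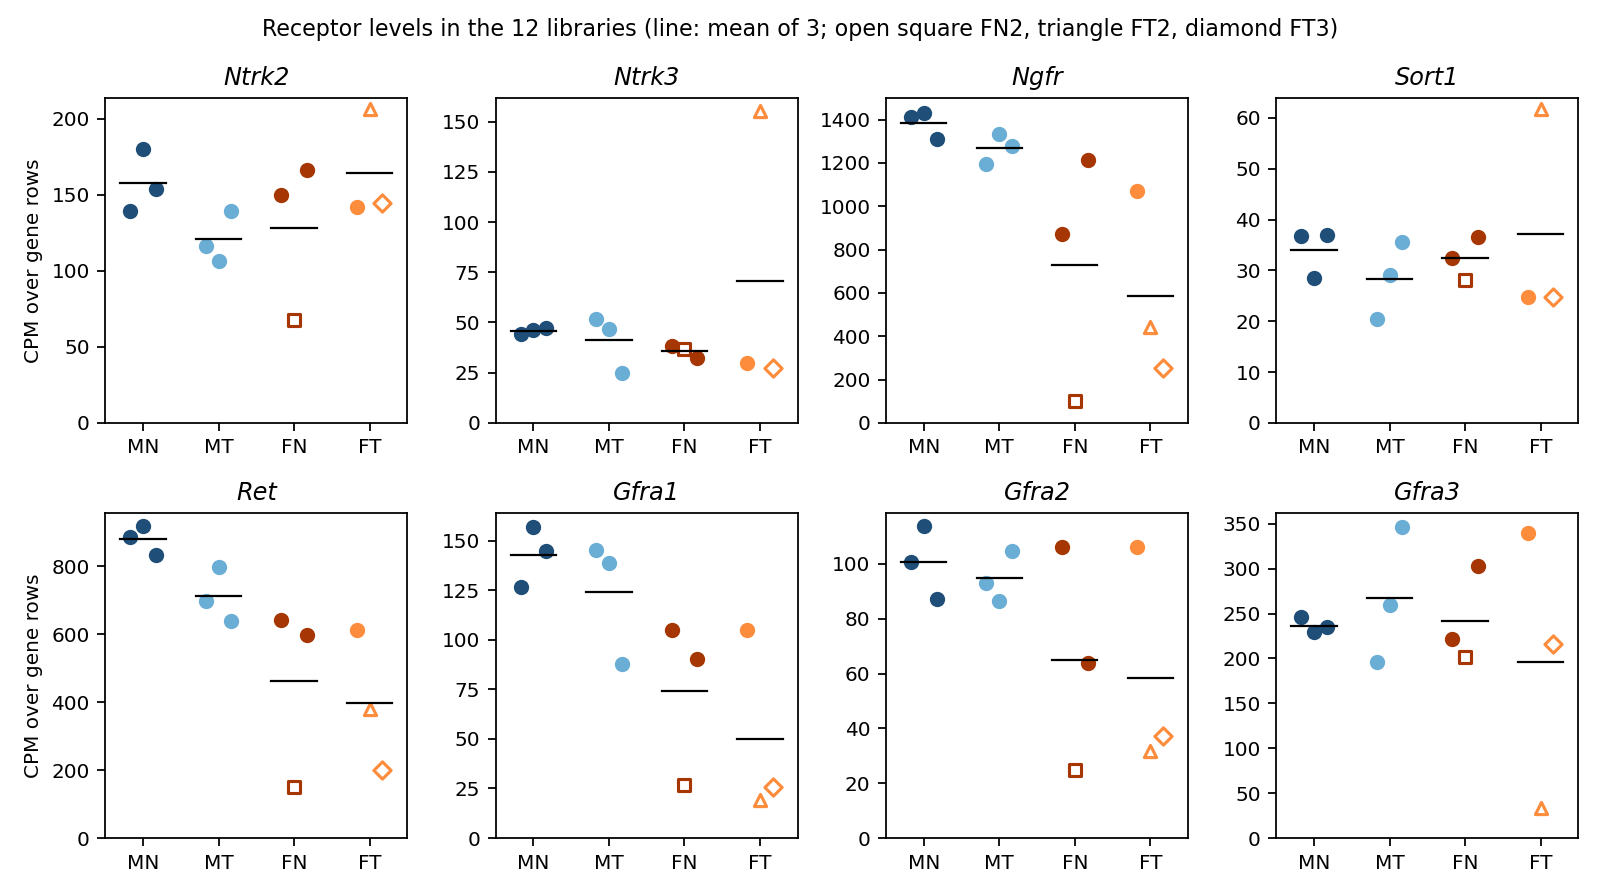
CPM of each receptor in the 12 libraries, with 1 point per library, grouped as MN, MT, FN and FT, and a line at the mean of the 3 libraries. Open symbols mark FN2 (square), FT2 (triangle) and FT3 (diamond), and all 9 *Ret* points of MT, FN and FT lie below the 3 MN points.

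*Ntrk2* (chr13:58907957-59235331, mm9, plus strand) encodes TrkB, the receptor of Bdnf. It measured 139, 180.5 and 154 CPM in MN, 116, 107 and 139.6 CPM in MT, 150.0, 67.5 and 166 CPM in FN, and 142, 207 and 144 CPM in FT. The MT range ended just above the lowest MN library, FN2 was the lowest of the 12 libraries, and every FT library was above every MT library. *Ntrk3* (chr7:85337248-85723294, mm9, minus strand) encodes TrkC, the receptor of the *Ntf3* product. It measured 44.1, 46.3 and 47.2 CPM in MN, 51.6, 46.8 and 24.7 CPM in MT, 38.3, 36.9 and 32.3 CPM in FN, and 29.9, 155 and 27.2 CPM in FT. All FN libraries were below all MN libraries, MT3 was below all FN libraries, and FT2 was 3.01 times the highest of the 9 libraries that did not stand apart, whereas FT1 and FT3 were below every FN library.

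*Ngfr* (chr11:95430132-95449049, mm9, minus strand) measured 1414, 1433 and 1312 CPM in MN, 1196, 1334 and 1279 CPM in MT, 874, 102 and 1212 CPM in FN, and 1069, 441 and 253 CPM in FT. The female groups were lower than the male groups with no overlap except that FN3 exceeded MT1, and the lowest 3 values were those of FN2, FT3 and FT2. Leaving these 3 libraries out, the female values were 874, 1212 and 1069 CPM and still lay below every MN library. *Sort1* (chr3:108087009-108164429, mm9, plus strand) measured 36.7, 28.6 and 37.0 CPM in MN, 20.4, 29.0 and 35.6 CPM in MT, 32.4, 28.2 and 36.6 CPM in FN, and 24.7, 61.8 and 24.7 CPM in FT. Its groups overlapped in every comparison, with FT2 above the other 11 libraries.

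*Ret* (chr6:118101766-118147762, mm9, minus strand) measured 887, 918 and 833 CPM in MN, 698, 797 and 640.0 CPM in MT, 641, 151 and 597 CPM in FN, and 613, 381 and 199 CPM in FT. Every MT, FN and FT library lay below every MN library, a pattern that 1 of the 8 receptors showed and that 1.68% of the 13835 genes tested showed. It did not rest on FN2, FT2 and FT3, since the highest values outside MN were those of MT2 and MT1. As a percent of the summed CPM of the 12 sensory neuron markers, *Ret* was 4.41, 4.92 and 4.57 in MN, 3.49, 4.10 and 3.39 in MT, 3.80, 0.581 and 3.38 in FN, and 3.06, 2.67 and 0.817 in FT. MN was above all other libraries on this scale too, for which the share of all genes was not computed. The sum is not a fixed measure of neurons, since its markers moved in both directions between FN and MN. In bulk samples, fewer cells that carry a transcript and less of it per cell cannot be told apart.

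*Gfra1* (chr19:58310094-58530399, mm9, minus strand) encodes the co-receptor of GDNF. It measured 126, 157 and 145 CPM in MN, 145, 139 and 87.8 CPM in MT, 105, 27.0 and 90.1 CPM in FN, and 105, 19.2 and 25.5 CPM in FT. MN was above all female libraries, MT1 and MT2 were within the MN range, and MT3 was below FN1, FN3 and FT1. *Gfra2* (chr14:71289927-71379645, mm9, plus strand), the co-receptor of neurturin, measured 101, 114 and 87.1 CPM in MN, 93.2, 86.6 and 105 CPM in MT, 106, 24.9 and 63.8 CPM in FN, and 106, 31.6 and 37.2 CPM in FT. FN1 and FT1 lay within the MN range and the other 4 female libraries lay below every male library. *Gfra3*, the co-receptor of artemin, measured 246, 229 and 235 CPM in MN, 196, 259.8 and 346 CPM in MT, 222, 202 and 303 CPM in FN, and 339, 34.0 and 216 CPM in FT. Its groups overlapped in every comparison, MT3 and FT1 were the highest libraries, and FT2 was 5.76 times below the lowest of the 9 libraries that did not stand apart.

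Normal females were compared with normal males to ask how the receptors of lingual neurons differ between the sexes without a tumor. *Ntrk3*, *Ngfr*, *Ret* and *Gfra1* were lower in all 3 FN libraries than in all 3 MN libraries, 4 of 8 receptors where 10.2% of the 13360 autosomal genes were lower without overlap. With the libraries scaled by TMM, *Ntrk3* overlapped and the other 3 did not, where 10.7% of genes were lower without overlap. Over FN1 and FN3 alone, the same 4 receptors lay below MN, where 13.9% of genes did. In the fit of all 12 libraries by edgeR's quasi-likelihood test with Benjamini-Hochberg adjustment, no receptor and no gene (0% of those tested) had an adjusted p under 0.05, and 0 receptors had an unadjusted p under 0.05, against 5.57% of genes. DESeq2 also gave 0 receptors an adjusted p under 0.05, where 0.15% of genes had one. It gave *Ntrk3* no p, so it could not call that gene in any comparison of the same fit. Limma-voom with quality weights gave 1, *Ret*, where 5.99% of genes did. The median log2 fold change was -0.43 over the 8 receptors and 0.07 over all genes tested.

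In that edgeR fit, *Ret* was 1.88-fold lower in FN than in MN (log2 fold change -0.91, SE 0.46, adjusted p = 0.809), *Gfra1* 1.90-fold lower (-0.93, SE 0.53, adjusted p = 0.809) and *Ngfr* 1.92-fold lower (-0.94, SE 0.61, adjusted p = 0.809). These estimates were drawn down by FN2. In a fit of FN1 and FN3 against MN alone, which was chosen after seeing the data, the differences were smaller and their intervals narrower. *Ret* then fell by 0.56 on the log2 scale (SE 0.088, edgeR adjusted p = 0.00302), *Gfra1* fell by 0.60 (SE 0.12, adjusted p = 0.0132) and *Ngfr* fell by 0.46 (SE 0.12, adjusted p = 0.0376), so that 3 of 8 receptors passed where 5.53% of 13156 genes did, and 1.55% in the lower direction. *Ntrk3* did not pass (-0.43, SE 0.13, adjusted p = 0.0814). The 3 calls rest on the narrow spread of 2 FN and 3 MN libraries, since the same libraries in the 4-group fit of 10 libraries, which keeps FT3, gave adjusted p values of 0.920, 0.978 and 0.999. Without FT3 as well, the adjusted p was 0.0672 for *Ret*, 0.198 for *Gfra1* and 0.134 for *Ngfr*. In the 4-group edgeR fit, leaving out 1 library moved the count of receptors with an unadjusted p under 0.05 from 0 to 2 without FN1 (*Ret* and *Gfra2*, where 8.7% of genes had one), and to 1 without FN3 (*Ngfr*, 10.2%), FT1 (*Gfra1*, 6.46%) or FT3 (*Ret*, 6.31%). The limma-voom fit of 12 libraries gave *Ret* a log2 fold change of -0.55 (SE 0.14, adjusted p = 0.0290).

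Markers of other cells moved with the same comparison. The 9 macrophage markers counted summed to 13.3 to 24.0 CPM in MN and 102 to 233 CPM in FN. At an unadjusted p under 0.05 in edgeR, 8 of them were higher in FN, where 5.57% of genes had such a p in either direction. Their defining markers *Csf1r* and *C1qa* were not at 0 in any library. The 9 satellite glia markers summed to 4297 to 5145 CPM in MN and 8423 to 16556 CPM in FN, with the defining markers *Fabp7* and *Kcnj10* above 0 throughout. Of the 8 tested, 2 were higher in FN at an unadjusted p under 0.05, against the same 5.57% of genes. The 12 neuronal markers summed to 18218 to 20086 CPM in MN, 16887 CPM in FN1, 25940 CPM in FN2 and 17664 CPM in FN3. Within this sum the markers moved in both directions, 5 of the 12 with a log2 fold change below 0 and the others above 0. *Avil* (-0.74), *Nefh* (-0.37), *Scn10a* (-0.90) and *Pirt* (-0.60) were lower in FN without overlap, as 10.2% of genes were, while *Calca* was at 1.02 with overlap. As a percent of that neuronal sum, *Ret* in FN1 and FN3 was still below MN, *Ngfr* was 7.04, 7.68 and 7.20 in MN and 5.17, 0.393 and 6.86 in FN, and *Gfra1* was 0.629, 0.841 and 0.794 in MN and 0.622, 0.104 and 0.510 in FN. On this scale *Ntrk3* overlapped, at 0.220, 0.248 and 0.259 in MN and 0.227, 0.142 and 0.183 in FN. The part of the other cells in these differences was not tested.

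**Figure D2:**
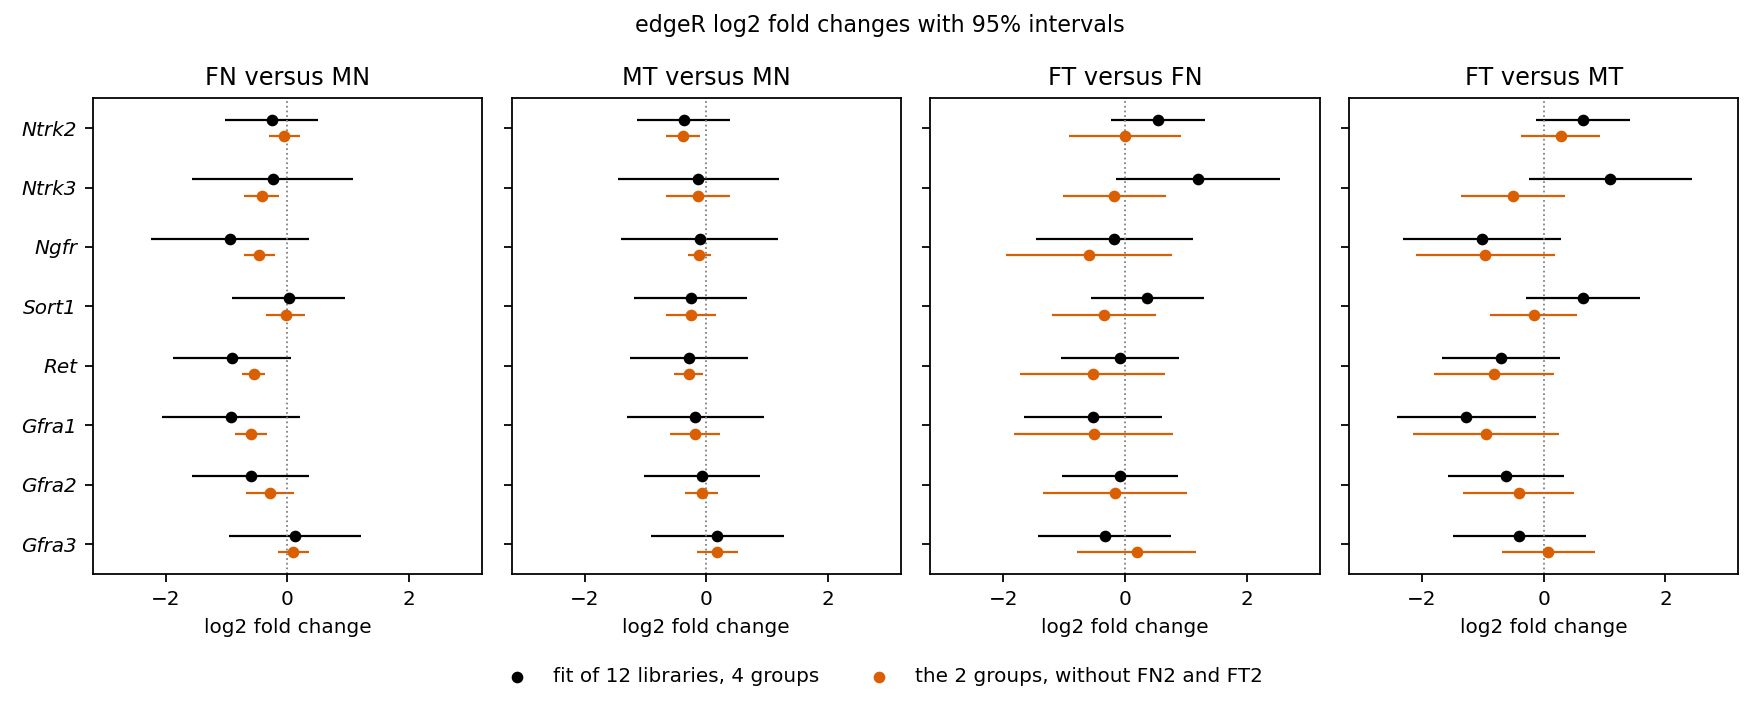
edgeR log2 fold changes of the 8 receptors with 95% confidence intervals in 4 comparisons, from the fit of 12 libraries in 4 groups (black) and from fits of the 2 groups compared without FN2 and FT2 (orange). In FN versus MN the orange intervals of *Ntrk3*, *Ngfr*, *Ret* and *Gfra1* exclude 0, and the 2 fits differ in sign for *Ntrk3*, *Sort1* and *Gfra3* in FT versus FN and FT versus MT, for *Ntrk2* in FT versus FN and for *Sort1* in FN versus MN.

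Tumor-bearing males were compared with normal males to ask what tongue tumor growth does to these transcripts in males. *Ret* was the receptor whose MT and MN libraries did not overlap, at 712 ± 79.4 CPM in MT and 879 ± 42.7 CPM in MN (n = 3 each), 1 of 8 where 7.32% of genes were lower without overlap. It was 1.22-fold lower (log2 fold change -0.29, SE 0.45, edgeR adjusted p = 1.00). *Ntrk2* was 1.29-fold lower (-0.37, SE 0.36, adjusted p = 1.00). Once libraries were scaled by TMM, *Ntrk2* also did not overlap, which made 2 of 8 receptors lower where 6.37% of genes were. No receptor had an adjusted p under 0.05 by edgeR (0% of genes), by DESeq2 (0.0145% of genes) or by limma-voom (0.34% of genes), and none had an unadjusted p under 0.05 in edgeR, as 0.426% of genes did. A fit of only these 6 libraries narrowed the spread, with SEs of 0.11 for *Ret* and 0.13 for *Ntrk2*, and both then had an unadjusted p under 0.05, where 6.92% of genes did, with adjusted p values of 0.680 and 0.597.

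MT3 was unlike the other 2 tumor-bearing male libraries in these receptors. Its *Ntrk3* level of 24.7 CPM and *Gfra1* level of 87.8 CPM compare with 46.8 to 51.6 CPM and 139 to 145 CPM in MT1 and MT2, and its *Gfra3* level was the highest of the 12. Without MT3, the log2 fold changes between MT and MN turned to 0.15 for *Ntrk3*, 0.04 for *Gfra1* and -0.01 for *Gfra3*. The macrophage markers summed to 139.9 CPM in MT3 against 7.80 and 12.8 CPM in MT1 and MT2, and the satellite glia markers to 5107 CPM against 3644 and 3660 CPM. Whether these go together was not tested.

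Tumor-bearing females were compared with normal females to ask the same of females. No receptor separated the 2 groups, where 2.49% of genes did so in either direction. None passed by edgeR, DESeq2 or limma-voom (0% of genes in each), although DESeq2 gave *Ntrk3* no p. In edgeR, 0 receptors had an unadjusted p under 0.05, against 3.82% of genes. That count became 2, *Ntrk3* and *Gfra1*, without FT1, where 16.1% of genes had one, and 1, *Ntrk3*, without FT3, where 10.3% did. Without FT1 the *Gfra1* log2 fold change went from -0.52 to -1.49 (SE 0.47, edgeR adjusted p = 0.203). The largest estimate was that of *Ntrk3*, 2.30-fold higher in FT (log2 fold change 1.20, SE 0.63, edgeR adjusted p = 0.994). It rested on FT2, without which it was -0.40 (SE 0.34, adjusted p = 1.00). *Sort1* turned in the same way, from 0.37 to -0.44, and *Gfra3* turned from -0.34 to 0.14. With FN2 and FT2 both left out, *Ntrk2*, *Ntrk3* and *Sort1* were lower in FT1 and FT3 than in FN1 and FN3, 3 of 8 receptors where 25.7% of genes were lower in these 2 against 2 libraries. With TMM scaling *Ntrk2* overlapped and the other 2 did not, where 24.1% of genes were lower. For *Ret*, the estimate was -0.08 with a 95% interval from -1.04 to 0.89, so a change of either sign up to about the size of the FN and MN difference was not excluded at this spread.

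Tumor-bearing females were compared with tumor-bearing males for the difference between the sexes with a tumor. *Ngfr* and *Ret* were lower in all FT than in all MT libraries, 2 of 8 where 9.61% of autosomal genes were, and *Ntrk2* was higher, 1 of 8 where 8.03% were. The *Ngfr* difference was 2.01-fold (log2 fold change -1.01, SE 0.61, edgeR adjusted p = 0.469), that of *Ret* 1.63-fold (-0.70, SE 0.45, adjusted p = 0.487) and that of *Ntrk2* 1.57-fold (0.65, SE 0.36, adjusted p = 0.450). *Gfra1* was 2.41-fold lower in FT (-1.27, SE 0.53, edgeR adjusted p = 0.371). It was the receptor with an unadjusted p under 0.05, where 12.1% of genes had one, although FT1 overlapped MT. With that edgeR p, it also passed the other 2 limits of the study's criteria for DEGs, a change above 1.5-fold and expression above 5 RPKM. The study took its p from DESeq, so this is not a call by its test. The share of all genes that met these criteria is not given here. By adjusted p no receptor passed in edgeR (0% of genes), DESeq2 (1.84%) or limma-voom (0%).

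The size of the *Gfra1* difference depended on FT2 and FT3. Leaving out FT1, so that FT was FT2 and FT3 alone, gave -2.24 (SE 0.49, edgeR adjusted p = 0.0363), 1 of 8 receptors where 5.55% of genes passed. In that fit 5 receptors had an unadjusted p under 0.05, *Ntrk3*, *Ngfr*, *Sort1*, *Gfra1* and *Gfra2*, where 29.2% of genes did. The count was 3 without FN2 (*Ntrk2*, *Ngfr* and *Gfra1*, 22.0% of genes), 1 without FT3 (*Ntrk3* in place of *Gfra1*, 13.1% of genes), and 0 without MT1, MT2 or FT2. Leaving out FT2 gave -0.96 (adjusted p = 0.665) and leaving out FT3 gave -0.97 (adjusted p = 0.513). In the 10 libraries without FN2 and FT2, *Gfra1*, *Ngfr* and *Ret* had an unadjusted p under 0.05, 3 of 8 where 22.5% of genes did, with adjusted p values of 0.219, 0.210 and 0.204, whereas none did in the fit of only MT, FT1 and FT3. With FT1 as the only FT library the *Gfra1* estimate was -0.31 (SE 0.26), under the assumption that a lone sample varies like the other groups. Satellite glia markers summed to 3644 to 5107 CPM in MT and 6812 to 18105 CPM in FT. In the fit of 12 libraries, 5 of the 8 tested were higher in FT at an unadjusted p under 0.05, where 12.1% of genes had one. Macrophage markers summed to 7.80 to 139.9 CPM in MT and 87.3 to 239.8 CPM in FT. Their part in the difference was not tested.

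In the fit of 12 libraries the tumor effect did not differ detectably between the sexes for any receptor. In the edgeR interaction term, no receptor had an adjusted or an unadjusted p under 0.05, where 0% and 1.47% of genes did, and DESeq2 and limma-voom gave none of either the receptors or all genes (0%) an adjusted p under 0.05. The estimates ran from -0.52 for *Gfra3* (SE 0.72) to 1.33 for *Ntrk3* (SE 0.88), on the log2 scale. Without FT1, *Ntrk3* (1.75, SE 0.80, edgeR adjusted p = 0.616) and *Gfra1* (-1.31, SE 0.61, adjusted p = 0.616) had an unadjusted p under 0.05, 2 of 8 receptors where 8.0% of genes had one.

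The share of each co-receptor within a library does not depend on scaling between libraries. The size of these shares, and of those of the Trk receptors, does depend on the exon lengths used. *Gfra3* made up 68.5 ± 2.80% of the summed RPKM of *Gfra1*, *Gfra2* and *Gfra3* in MN, 72.1 ± 7.09% in MT, 80.0 ± 10.1% in FN and 74.3 ± 15.2% in FT (SD, n = 3 each). Its lowest share was 57.7% in FT2 and its highest were 89.4% in FN2 and 87.7% in FT3, while among the other 9 libraries it ran from 64.9% in MT1 to 81.5% in FN3. *Gfra1* held 13.2% to 16.3% in MN and 3.77% to 11.9% in the 6 female libraries, with 7.30% in MT3 and 14.0% and 17.5% in the other MT libraries. The 3 co-receptors summed to 141% to 149% of the *Ret* RPKM in MN, to 159% or more in each MT and FN library, and to 263%, 57.0% and 456% in FT. FT2 was thus the library in which *Ret* exceeded its co-receptors. Between the Trk receptors, *Ntrk3* held 45.7 ± 2.81% of the summed RPKM of *Ntrk2* and *Ntrk3* in MN, with a range of 33.7% in MT3 to 68.4% in FT2 over the 12 libraries, and the group means lay between 45.7% and 48.6%.

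**Figure D3:**
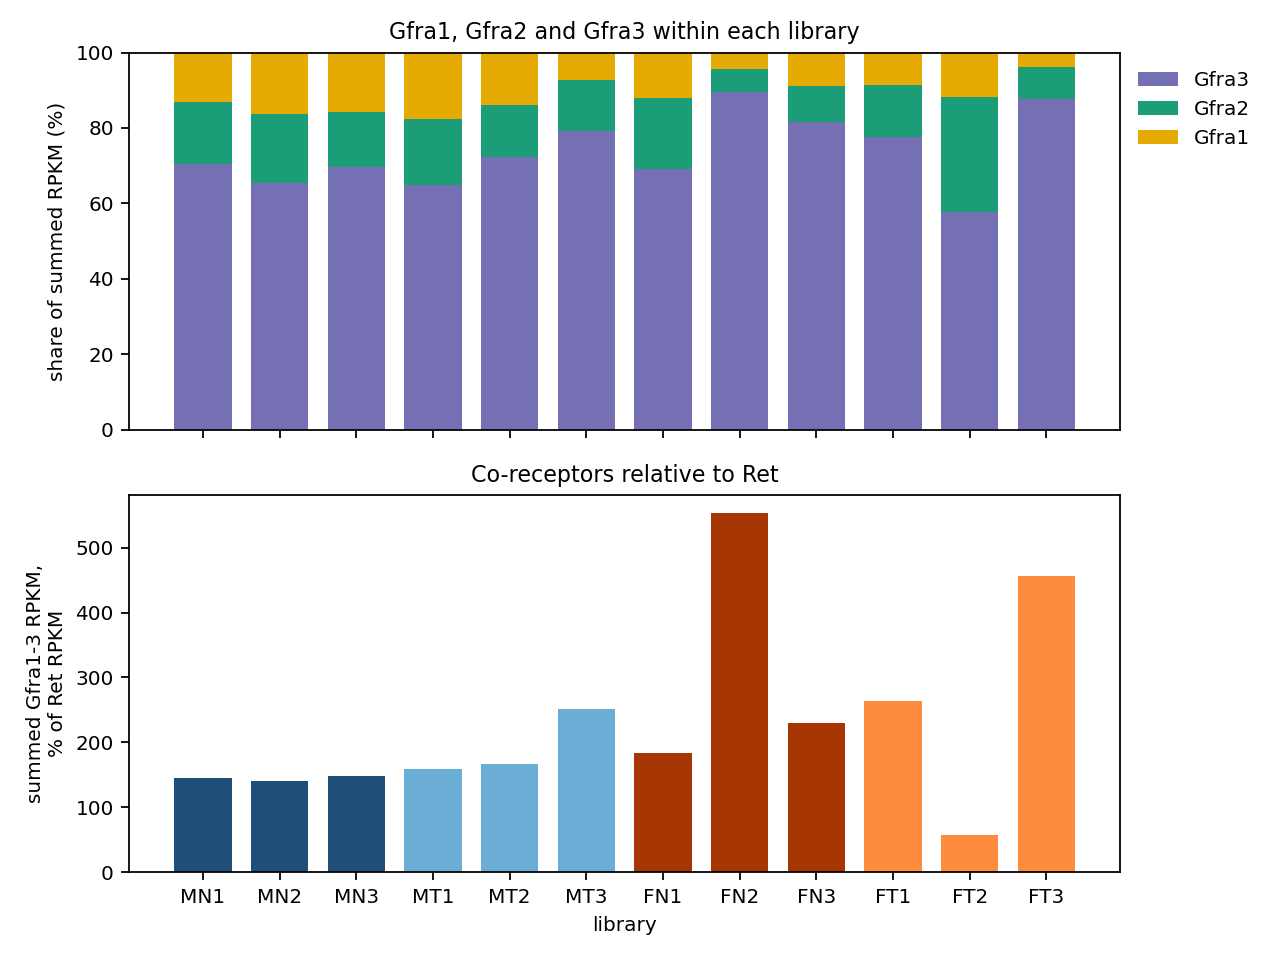
Upper panel, share of *Gfra1*, *Gfra2* and *Gfra3* in their summed RPKM in each of the 12 libraries, in percent. Lower panel, the summed RPKM of the 3 co-receptors as a percent of the *Ret* RPKM, from 57.0% in FT2 to 553% in FN2, with the 3 MN libraries between 141% and 149%.

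Some receptors varied together across libraries. These correlations of log2 CPM are descriptions over libraries that share group and library quality. *Ngfr* and *Ret* had a Pearson r of 0.96 over the 12 libraries and 0.74 over the 9 without FN2, FT2 and FT3. *Ret* and *Gfra1* had an r of 0.85 over the 12 libraries and 0.86 over the 9. Other pairs did not hold. *Gfra2* with *Ngfr*, *Ret* and *Gfra1* had an r of 0.88, 0.87 and 0.90 over the 12 libraries. Over the 9, these values were -0.0090, 0.35 and 0.33. The r of all gene pairs is not given for comparison. *Ntrk3* and *Gfra3* ran in opposite directions, with an r of -0.95 and -0.86, and *Ntrk3* and *Gfra1* changed from -0.34 over the 12 libraries to 0.93 over the 9. FT2 held the highest *Ntrk3* and the lowest *Gfra1* level. In the 9 libraries, MT3, FT1, FN3 and FN1 had the 4 lowest levels of both *Ntrk3* and *Gfra1*.

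**Figure D4:**
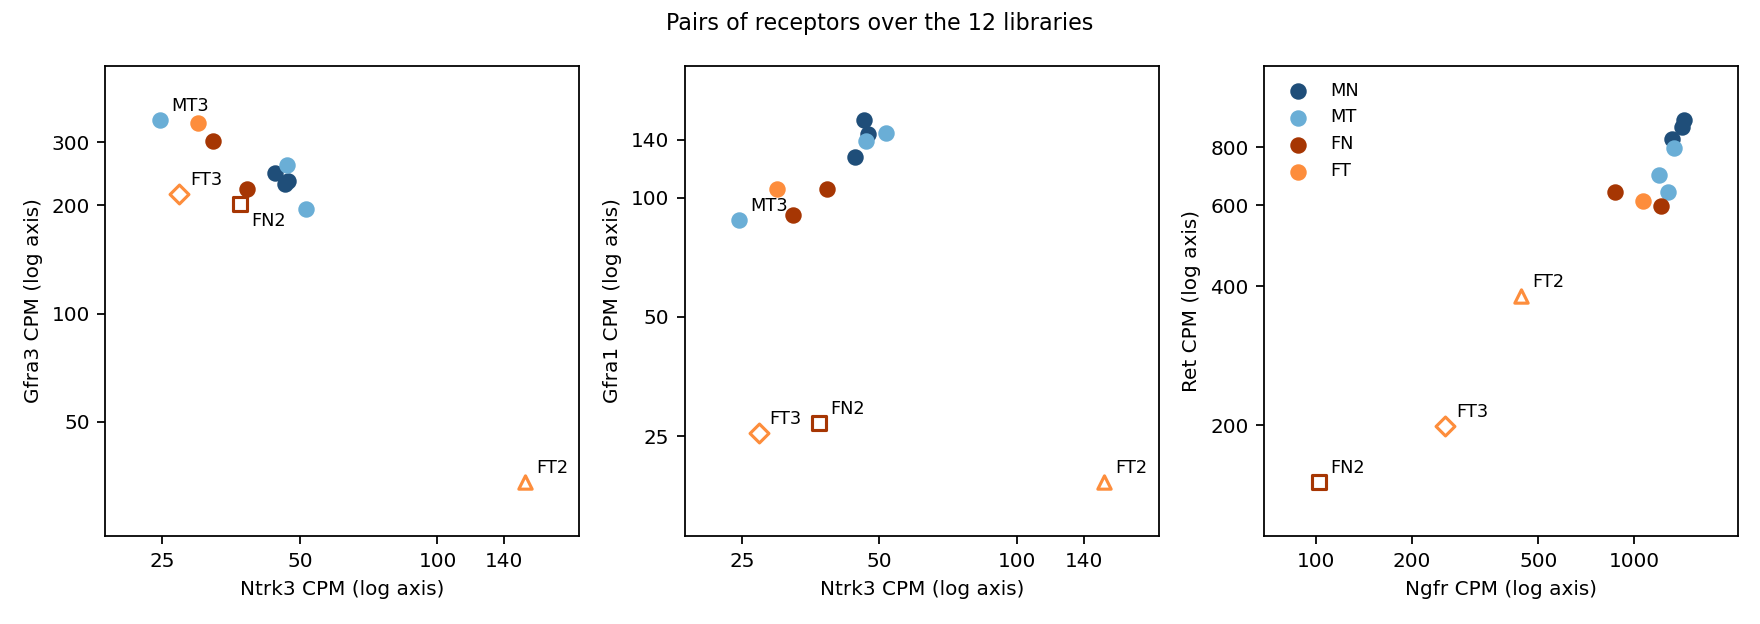
CPM of *Gfra3* against *Ntrk3*, *Gfra1* against *Ntrk3* and *Ret* against *Ngfr* on log axes, with 1 point per library in the color of its group. Open symbols mark FN2, FT2 and FT3, and FT2 sits far to the right of the other libraries in *Ntrk3*, with MT3 at the left end.

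Among the 9534 genes with a mean of at least 10 CPM, those most like *Ngfr* in log2 CPM over the 12 libraries were *Mfsd9* (r = 0.995), *Ube4a* (r = 0.994) and *Avil* (r = 0.993), with 0.84, 0.89 and 0.87 over the 9. *Ret* was most like *A230046K03Rik*, *Hspa4l* and *Gm765* (r = 0.990 to 0.987, and 0.88 to 0.89 over the 9). *Ntrk3* was most like *Nat8l*, *Timp2* and *Eme1* (r = 0.984 to 0.981, and 0.90 to 0.96 over the 9). *Gfra1* was most like *Vps26b*, *Ngly1* and *Arl8b* (0.978 to 0.976, and 0.79 to 0.88), *Gfra2* most like *Kcnip4*, *Snd1* and *6430598A04Rik* (0.971 to 0.963, and 0.74 to 0.92), and *Gfra3* most like *Pspc1* and *2810403A07Rik* (0.961 and 0.959, and 0.50 and 0.78). *Ntrk2* was most like *Mfap3l* and *Crebl2* (0.942 and 0.914, and 0.81 and 0.57), and *Sort1* most like *Arpp19*, *Mprip* and *Kif16b* (0.958 to 0.949, and 0.84 to 0.93).

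Among the ligands of these receptors, *Bdnf*, the ligand of TrkB, was the abundant transcript in the sorted cells. *Bdnf* measured 175, 155 and 123 CPM in MN, 233, 217 and 146 CPM in MT, 143, 296 and 182 CPM in FN, and 171, 84.7 and 277 CPM in FT, with overlap in all 4 comparisons. *Gdnf*, *Artn* and *Pspn* reached at most 6, 8 and 2 reads in any library, *Ntf3* 16 and *Nrtn* 67, and *Ntf5* had 0 reads in all 12, which allows up to 3 reads per library by counting error alone. Of the 9 ligand symbols listed, 8 were in the files, 3 had enough counts to be tested and none had an unadjusted p under 0.05 in any comparison.

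Other genes of the pathway are given by lists, with an unadjusted p under 0.05 in edgeR as the limit, since no gene had an adjusted p under 0.05 in the edgeR fit of the 12 libraries. The share of all genes with such an unadjusted p was 5.57% in FN versus MN, 0.426% in MT versus MN, 3.82% in FT versus FN and 12.1% in FT versus MT. Of the 11 other co-receptors and sortilin relatives tested in FN versus MN, *Nradd*, a relative of *Ngfr*, was higher, 1 of 11 against 5.57% of all genes, with 1.57 to 2.53 CPM in MN and 3.84 to 8.87 CPM in FN (log2 fold change 1.59, SE 0.53, adjusted p = 0.809). Of the same 11 in FT versus MT, *Sorcs1* was higher, 1 of 11 against 12.1% (0.89, SE 0.40, adjusted p = 0.399), and none passed in MT versus MN or FT versus FN. The remaining sortilin relatives and *Gfra4* did not pass. *Gfra4* lay between 3.05 and 27.0 CPM.

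Among 20 adaptors and effectors, which link the activated receptors to their signaling cascades, 1 was lower in FN versus MN, 0 passed in MT versus MN, 2 were higher and 1 lower in FT versus FN, and 2 were higher in FT versus MT, against 5.57%, 0.426%, 3.82% and 12.1% of all genes. The shares in FN versus MN and FT versus MT were thus near those of all genes. The genes were *Dok6*, an adaptor of Ret, in FN versus MN (-2.87, SE 1.24, adjusted p = 0.809), where it had at most 2.11 CPM, and *Sh2b2* and *Magi2*, both scaffold or adaptor proteins, in FT versus MT (2.99, SE 0.71, adjusted p = 0.301, and 1.71, SE 0.59, adjusted p = 0.332). Both were highest in FT2, *Magi2* at 27.2 CPM against 8.17 CPM or less in the other 11 libraries and *Sh2b2* at 6.31 CPM against 2.65 CPM or less. *Frs2*, a docking protein of Trk receptors and Ret, was lower in FT versus FN (-0.93, SE 0.43, adjusted p = 0.994), with 2.18 CPM in FT2. *Dok4*, also an adaptor of Ret, lay between 269 and 828 CPM and passed in no comparison.

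Of 16 inhibitors and regulators of receptor number, *Lrig3*, of the family that limits receptor signaling, was higher in FN versus MN (2.59, SE 0.77, adjusted p = 0.809) and in FT versus MT (1.69, SE 0.73, adjusted p = 0.387), from at most 1.11 CPM in the male libraries to 1.10 to 3.70 CPM in the female ones. *Spry4*, an inhibitor of receptor tyrosine kinase signaling, was lower in FT versus MT (-1.08, SE 0.49, adjusted p = 0.402), with 6.75 and 15.1 CPM in FT2 and FT3 and 33.1 CPM in FT1 against 33.3 to 45.3 CPM in MT. The counts were 1 of 16 in FN versus MN and 2 of 16 in FT versus MT, near the 5.57% and 12.1% of all genes, and 0 in MT versus MN and FT versus FN.

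Of 10 genes known to be induced by neurotrophins or GDNF, *Npy* and *Fos* were higher in FN versus MN, *Npy* in MT versus MN, and *Vgf* in FT versus FN and FT versus MT. These were 2, 1, 1 and 1 of the 10, against 5.57% of all genes in FN versus MN, 0.426% in MT versus MN, 3.82% in FT versus FN and 12.1% in FT versus MT. *Npy*, a neuropeptide gene, was at 0.14 to 0.23 CPM in MN, 1.94 to 3.77 CPM in MT, 1.13 to 10.7 CPM in FN and 0.65 to 34.0 CPM in FT. It had 3 or fewer reads in 4 of the 12 libraries, so differences among its lowest values are within counting error. Its log2 fold change was 3.64 (SE 1.39, edgeR adjusted p = 1.00) in MT versus MN and 4.91 (SE 1.38, adjusted p = 0.809) in FN versus MN. *Fos*, an immediate early gene, was 2.07-fold higher in FN (1.05, SE 0.36, adjusted p = 0.809). *Vgf*, a secreted neuropeptide precursor induced by neurotrophins, was 2.56-fold higher in FT than in FN (1.35, SE 0.57, adjusted p = 0.994), with 373 CPM in FT2 and at most 113 CPM in the other 11 libraries.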

How the data were processed

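WGA-positive TG cells were sorted and sequenced as pooled bulk samples by SMART-seq2 with 50-base single reads. The authors aligned reads to the mouse genome (mm9) with TopHat2 and deposited raw counts per gene from HTSeq, 1 table per library, with base calling by CASAVA 1.8.2. The annotation and strand setting were not given in the sources used here. Rows that name no gene, 76.3% to 88.8% of reads, were dropped before CPM were computed. RPKM used exon lengths of an mm9 annotation, which matched 95.7% of the symbols.

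Genes passing edgeR's filterByExpr (minimum count 10, minimum total 15) were kept (13835), and X and Y genes were left out between the sexes (13360). Libraries were scaled by TMM (factors 0.775 to 1.08). All 12 libraries were fitted in 1 model of 4 groups with edgeR 4.0.16 in R 4.3.3 (quasi-likelihood test, Benjamini-Hochberg adjustment, threshold 0.05), after testing on simulated data. Alternatives were DESeq2 1.42.0, limma 3.58.1 (voom with quality weights), median-of-ratios size factors, no filter, a replicate block, only the groups compared, 10 libraries (without FN2 and FT2), 9 libraries (also without FT3), each library left out, and, chosen after seeing the data, only the groups compared among the 10. DEG thresholds followed the study but were applied to the edgeR p. All 8 receptors were named, with list genes at an unadjusted p under 0.05 and the 3 genes most like each receptor, of which some are not reported here. Members and lists were chosen with earlier results of these data known. Counting limits cover counting error only.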

Additional observations from a re-analysis of the deposited data

How the results depend on the processing

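The number of genes with an adjusted p under 0.05, 0 in each comparison in the edgeR fit of 12 libraries, depended on the model. DESeq2 gave 20 genes in FN versus MN, 2 in MT versus MN and 246 in FT versus MT, and limma-voom gave 800 and 47 in the first 2 of these. The 9 libraries gave 54, 3 and 1 genes, the fit of only the groups compared gave 6 in MT versus MN, and the fit of the 2 groups of the 10 libraries, chosen after seeing the data, gave 728 in FN versus MN and 6 in MT versus MN. Leaving out 1 library at a time gave 0 to 1 genes in FN versus MN and 0 to 755 in FT versus MT, the highest without FT1. The causes of these shifts were not tested. Each receptor had at least 88 reads in every library.

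Of the receptors' log2 fold changes outside the leaving out of single libraries, 45 changed sign, 295 kept their direction and call and 4 newly passed. In the 10 libraries, signs changed in FN versus MN for *Sort1* (-0.037), in FT versus FN for *Ntrk2* (-0.042), *Ntrk3* (-0.21), *Sort1* (-0.38) and *Gfra3* (0.16), in FT versus MT for *Ntrk3* (-0.51), *Sort1* (-0.16) and *Gfra3* (0.073), and in the interaction for *Ntrk3* (-0.077), *Sort1* (-0.13) and *Ret* (-0.26). In the 2 groups of the 10 libraries they changed in FN versus MN for *Sort1* (-0.031), in FT versus FN for *Ntrk2* (-0.0054), *Ntrk3* (-0.18), *Sort1* (-0.35) and *Gfra3* (0.19), and in FT versus MT for *Ntrk3* (-0.51), *Sort1* (-0.16) and *Gfra3* (0.075). In the 9 libraries they changed in FN versus MN for *Sort1* (-0.032), in FT versus FN for *Ntrk2* (-0.15), *Ntrk3* (-0.23), *Ngfr* (0.042), *Sort1* (-0.48), *Gfra1* (0.11), *Gfra2* (0.33) and *Gfra3* (0.38), in FT versus MT for *Ntrk3* (-0.53), *Sort1* (-0.25), *Gfra2* (0.10) and *Gfra3* (0.29), and in the interaction for *Ntrk3* (-0.10), *Ngfr* (0.15), *Sort1* (-0.22), *Gfra1* (0.29), *Gfra2* (0.40) and *Gfra3* (0.19). With limma-voom they changed for *Sort1* in FN versus MN (-0.015) and FT versus FN (-0.21), *Ntrk3* in FT versus MT (-0.26) and *Ret* in the interaction (-0.36). *Gfra2* changed in the interaction with DESeq2 (0.0390) and with median-of-ratios size factors (0.0388), and *Sort1* in FN versus MN without the filter (-0.0035).

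Leaving out 1 library at a time, log2 fold changes ran from -0.089 to 0.073 for *Sort1* in FN versus MN. In MT versus MN they ran from -0.17 to 0.040 for *Gfra2*, -0.36 to 0.15 for *Ntrk3*, -0.33 to 0.037 for *Gfra1* and -0.013 to 0.35 for *Gfra3*. In FT versus FN they ran from -0.45 to 0.25 for *Ret*, -0.68 to 0.40 for *Gfra2*, -0.74 to 0.37 for *Ngfr*, -0.40 to 1.62 for *Ntrk3*, -0.44 to 0.67 for *Sort1* and -0.88 to 0.14 for *Gfra3*. In FT versus MT they ran from -0.52 to 1.50 for *Ntrk3*, -0.17 to 0.94 for *Sort1* and -0.95 to 0.069 for *Gfra3*. In the interaction they ran from -0.61 to 0.47 for *Gfra2*, -0.63 to 0.48 for *Ngfr*, -0.16 to 0.54 for *Ret*, -0.27 to 1.75 for *Ntrk3* and -0.19 to 0.92 for *Sort1*.

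The replicate numbers are shared between groups but were not shown to pair the samples, since same-numbered libraries had correlations of their deviations from -0.35 to 0.57. With the replicate number as a block, 0 genes passed in every comparison by edgeR. At an unadjusted p under 0.05 there were 511 genes in FN versus MN, 42 in MT versus MN, 341 in FT versus FN and 1565 in FT versus MT, and *Sort1* in FN versus MN became -0.011.

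Unadjusted counts moved by more than 1.5 times in several fits, from 744 to 2820 genes with limma-voom, 2107 in the 9 libraries and 2679 in the 2 groups of the 10 libraries in FN versus MN, and from 59 to 922 in MT versus MN with only the groups compared.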

Other observations

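Further marker lists are given as summed CPM over the libraries, without explanation. The 6 axon injury response genes summed to 911 to 1016 CPM in MN, 1300 to 1464 CPM in MT, 1009 to 2836 CPM in FN and 1356 to 2433 CPM in FT. Every MT library was thus above every MN library, whereas FT overlapped FN, with FN2 the highest of the 12 libraries. At an unadjusted p under 0.05 in edgeR, 2 of the 6 were higher in MT than in MN, where 0.426% of genes had such a p. Between FN and MN, 2 of the 6 were higher in FN, where 5.57% of genes had one, and none passed an adjusted p. Fibroblast markers, 6 genes, summed to 80.1 to 133 CPM in MN and 161 to 411 CPM in FN. Of these, 2 were higher in FN at an unadjusted p under 0.05, where 5.57% of genes had one. Myelinating Schwann cell markers, 7 of 8 found, summed to 2045 to 2142 CPM in MN and 2102 to 2510 CPM in FN.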
